A study of Mus musculus with 21 samples.

Results

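The expression of the general transcription factor TFIID was examined through 10 genes, Tbp, Tbpl1, Taf1, Taf2, Taf5, Taf6, Taf7, Taf10, Taf12 and Taf13. They were chosen by name, as the listed subunits and the TBP paralog Tbpl1, out of 24421 genes in the deposited count table, and all 10 were present. All 10 also passed the filter on low counts, which kept 12786 genes for testing. RNA-seq was done on primary bone marrow B cell precursors of C57BL/6 mice, grown with IL-7 and transduced with the retroviral vector MIGR1. The empty vector (EV) was the control, and the other vectors carried BCR-ABL1 (the p210 form) or C-MYC. Each condition had 2 libraries, and RNA was taken between day 7 and day 9 after transduction. Every mouse lacked 53BP1, a DNA repair factor, so the controls carried the same deletion and no wild-type cells enter the comparisons. The libraries come from duplicate experiments per the methods, and p-values measure the spread between these libraries only.

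TFIID is the complex that recognises the core promoter of genes transcribed by RNA polymerase II. TBP binds and bends the TATA box, and the TBP-associated factors (TAFs) contact the initiator, downstream promoter elements and modified histones. Many TAFs carry a histone fold and enter the complex as pairs, such as TAF6 with TAF9, TAF4 with TAF12 and TAF11 with TAF13. Several TAFs also belong to SAGA, a co-activator that modifies histones. The study addressed the question whether oncogene-driven transformation raises Tbp, because a rise of TBP has been tied to clashes between transcription and replication in other cells.

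Promoter windows of 300 bases (250 before the annotated start and 50 after it, RefSeq, build GRCm38.p6) were searched for 8 members, with 1 window each and 2 for Taf6, or 9 in all. Taf2 and Taf7 were not searched. Both strands were searched for the letters CACGTG, the palindromic E-box bound by MYC with MAX. They were also searched for TATAAA, the letters of the TATA box, and for the core CGGAAG bound by ETS factors. These letters do not overlap each other. CACGTG lay in 1 of 8 members (Taf12), against 7.15% of 32851 promoters of the same length. TATAAA lay in 3 of 8 (Taf5, Taf6 and Taf13), against 13.6% of all promoters, and CGGAAG in 6 of 8 (Tbp, Tbpl1, Taf1, Taf10, Taf12 and Taf13), against 16.9%. The percentages count single windows, whether or not the gene was expressed, while members were counted as genes. They are therefore not a matched background, and no trait of the members is read from them. The TATAAA matches lay at -246 (Taf5), -92 (Taf6) and -32 (Taf13) from the annotated start, so the count of 3 is not a count of TATA-box promoters. The 3 windows printed here are those of Tbp, which gives the complex its TATA contact, of Taf12, the member with the E-box, and of Taf13, the member with the lowest counts and a TATA box 32 bases before its start. All 3 lie on the plus strand, at chr17:15499638-15499937, chr4:132274125-132274424 and chr3:108571449-108571748 respectively. They are written 5′ to 3′, and capitals mark any of the letters searched. A match is a description of the sequence and not of binding.
Tbp: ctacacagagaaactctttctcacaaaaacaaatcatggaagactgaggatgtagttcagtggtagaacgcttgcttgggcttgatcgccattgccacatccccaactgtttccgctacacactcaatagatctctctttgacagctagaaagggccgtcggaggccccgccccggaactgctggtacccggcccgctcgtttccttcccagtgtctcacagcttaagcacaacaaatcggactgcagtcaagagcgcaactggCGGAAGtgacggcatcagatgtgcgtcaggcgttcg
Taf12: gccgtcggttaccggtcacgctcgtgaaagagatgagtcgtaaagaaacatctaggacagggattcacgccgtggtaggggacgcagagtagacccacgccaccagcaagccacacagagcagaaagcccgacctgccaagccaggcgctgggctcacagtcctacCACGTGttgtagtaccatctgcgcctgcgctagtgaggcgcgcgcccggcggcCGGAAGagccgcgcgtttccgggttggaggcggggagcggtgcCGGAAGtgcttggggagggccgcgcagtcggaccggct
Taf13: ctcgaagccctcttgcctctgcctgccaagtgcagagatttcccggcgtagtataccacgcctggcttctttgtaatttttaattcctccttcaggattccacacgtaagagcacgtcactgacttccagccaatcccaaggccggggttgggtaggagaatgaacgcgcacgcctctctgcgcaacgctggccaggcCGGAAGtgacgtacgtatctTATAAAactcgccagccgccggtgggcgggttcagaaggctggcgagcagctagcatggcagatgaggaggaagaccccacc

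The libraries held between 20687092 and 24095955 counts. Normalised read counts are given as CPM, the counts scaled to a common library size with TMM factors. Myc, the transduced gene of the C-MYC vector, was at 137 and 181 CPM (EV), 343 and 348 (BCR-ABL1) and 1233 and 1743 (C-MYC), so the C-MYC label matched. The BCR-ABL1 label was not checked by its transgene. All 10 markers of B cell precursors were above 1 CPM in every library, and their summed level was 5027 to 5638 CPM (EV), 5221 to 5740 (BCR-ABL1) and 2911 to 3415 (C-MYC). The 7 measured myeloid markers (of 8 listed, 5 above 1 CPM in every library) summed to 1094 to 1221 CPM in EV, against 137 to 155 in BCR-ABL1 and 184 to 316 in C-MYC. Summed T and NK cell markers (6 of 6 measured) were at 80.8 to 108 CPM in EV and at most 7.31 in the other libraries, and stromal markers (6 of 6 measured) at 103 to 157 and at most 6.07. The 5 erythroid markers used summed to at most 1.54 CPM, with Hba-a1, Hbb-bs and Hbb-b1 at 0 counts in every library. Markers of other cells thus moved with the EV condition, and their part in the results was not tested. In such bulk samples, fewer cells of a type and less RNA per cell cannot be told apart.

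None of the 10 TFIID members was called as changed in any of the 3 comparisons. In C-MYC against EV, 0 of 10 members were called by edgeR's quasi-likelihood test at an adjusted p below 0.05 (Benjamini-Hochberg over all genes tested), where 43.1% of all genes tested were called. In C-MYC against BCR-ABL1 the count was 0 of 10 against 23.4% of all genes, and in BCR-ABL1 against EV it was 0 of 10 against 17.0%. At an unadjusted p below 0.05, edgeR's count was also 0 of 10 in each comparison. DESeq2 and limma on log2 FPKM called 0 of 10 in each comparison too, although DESeq2 had 1 member below an unadjusted 0.05 in C-MYC against EV. With the replicate number as a block, edgeR called 1 of 10 in C-MYC against EV (Taf10) and 0 of 10 in the other comparisons.

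The differences of the members were also small in size. The median absolute log2 fold change in C-MYC against EV was 0.09 over the 10 members and 0.48 over all genes tested. It was 0.06 against 0.34 in C-MYC against BCR-ABL1, and 0.11 against 0.27 in BCR-ABL1 against EV. The largest change of a member in C-MYC against EV was 0.32, a size that 63.3% of all genes tested exceeded. The median standard error in that comparison was 0.15 for the members and 0.18 for all genes. Single members differed, with 0.29 for Taf13 and 0.18 for Tbp. The 2 libraries of one condition lay wholly above or below those of the other for 2 of 10 members in BCR-ABL1 against EV (58.9% of all genes tested), for 2 of 10 in C-MYC against EV (70.6%) and for 3 of 10 in C-MYC against BCR-ABL1 (69.9%). A missed threshold does not show equal levels, so the 95% interval is given below with each change that matters.

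**Figure D1:**
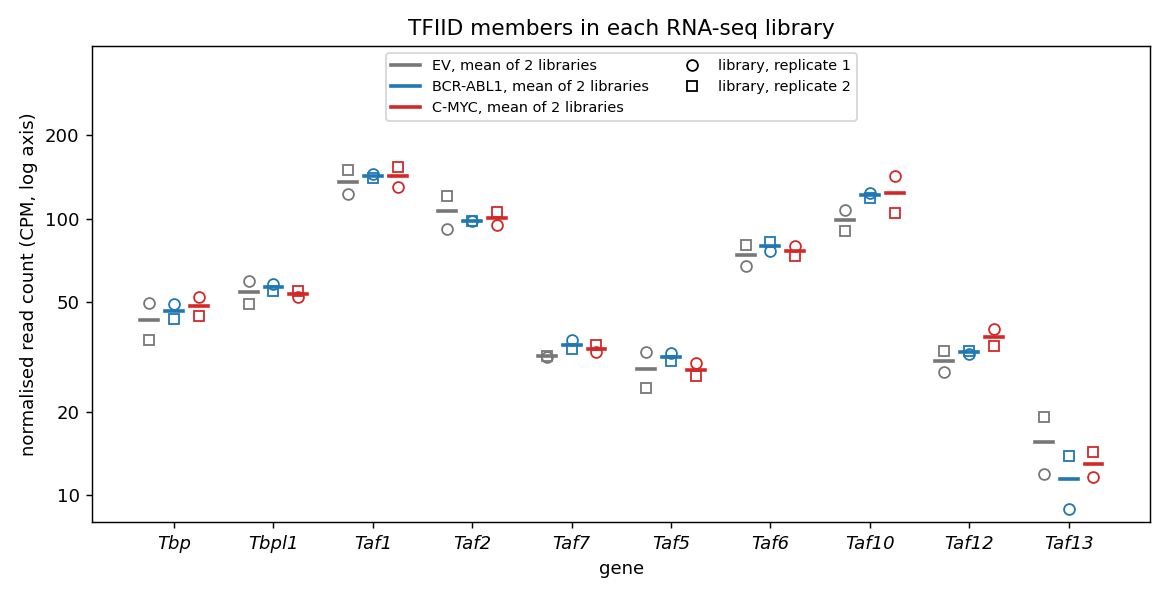
Normalised read count (CPM, log axis) of the 10 TFIID members in the 6 libraries, coloured by condition, with circles for replicate 1, squares for replicate 2 and bars for the mean of 2 libraries. The EV pair is spread wide for Tbp and Taf13 and lies almost on 1 point for Taf7, and only Taf7 in both oncogene conditions, Taf10 in BCR-ABL1 and Taf12 in C-MYC stand clear of both EV libraries.

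Tbp, the TATA-binding subunit (GRCm38, chr17:15499888-15528379, plus strand, 8 exons in its longest transcript), had 1064 and 872 counts (EV), 1036 and 1042 (BCR-ABL1) and 1132 and 987 (C-MYC). The EV libraries therefore enclosed both BCR-ABL1 libraries and 1 of the C-MYC libraries after scaling, with 49.7 and 36.4 CPM (EV), 49.1 and 43.3 (BCR-ABL1) and 52.0 and 44.3 (C-MYC). The means were 43.1 ± 9.40 CPM (SD, n = 2), 46.2 ± 4.11 and 48.2 ± 5.45. The log2 fold change in C-MYC against EV was 0.16 (SE 0.18, adjusted p = 0.498 by edgeR's quasi-likelihood test), and its 95% interval ran from 0.84-fold to 1.49-fold. In BCR-ABL1 against EV it was 0.10 (SE 0.18, adjusted p = 0.753, edgeR), with an interval from 0.81-fold to 1.43-fold. A 2-fold rise of Tbp relative to the other RNA of a library is outside both intervals. The scaling removes any change in total RNA per cell, which was not measured. Without the second EV library, the one with the lowest Tbp, both values changed sign, to -0.04 and -0.10. Of the exon bases of Tbp, 19.0% are shared with the antisense gene Pdcd2, whose log2 fold change in C-MYC against EV was 0.37 (adjusted p = 0.0414, edgeR). The strand setting of the counting is not given in the sources used here, so reads of the shared stretch cannot be assigned to either gene.

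Tbpl1 encodes a TBP-like factor that binds TFIIA but not the TATA box and is known for its role in sperm development. It lies at chr10:22703879-22731938 on the minus strand. Its counts were 1272 and 1174 (EV), 1224 and 1322 (BCR-ABL1) and 1136 and 1219 (C-MYC), so all 6 libraries fell in a narrow band. The log2 fold changes were 0.06 in BCR-ABL1 against EV (interval -0.25 to 0.37) and -0.02 in C-MYC against EV (-0.33 to 0.29). Its antisense neighbour Slc2a12, which shares 12.4% of its exon bases, had 0 counts in all 6 libraries.

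Because both paralogs were counted in the same libraries, their ratio does not depend on scaling. Tbpl1 had more counts than Tbp in every library, by 1.00-fold to 1.35-fold. The log2 ratio of Tbp to Tbpl1 was -0.26 and -0.43 (EV), -0.24 and -0.34 (BCR-ABL1) and -0.01 and -0.30 (C-MYC). The conditions overlapped, and an exact permutation test (2-sided) gave p = 0.667 for each of the 3 pairs of conditions, before and after adjustment over the 3, in a design whose smallest possible p is 0.333. The difference between condition means was 0.19 for C-MYC minus EV, 0.05 for BCR-ABL1 minus EV and 0.14 for C-MYC minus BCR-ABL1.

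Taf1, Taf2 and Taf7 belong to the lobe of TFIID that meets the initiator and the downstream promoter. Taf1, the largest subunit and a carrier of paired bromodomains (chrX:101532734-101601789, plus strand), had 2625 and 3567 counts (EV), 3043 and 3359 (BCR-ABL1) and 2833 and 3429 (C-MYC). Taf2, which contacts the initiator together with TAF1 (chr15:55015131-55072152, minus strand), had 1964 and 2882 counts (EV), 2069 and 2350 (BCR-ABL1) and 2061 and 2345 (C-MYC). For both genes the EV libraries lay on either side of the BCR-ABL1 libraries, before and after scaling. The log2 fold changes of Taf1 were 0.06 in both oncogene conditions against EV, with the C-MYC interval from -0.25 to 0.38. Those of Taf2 were -0.12 in BCR-ABL1 (-0.46 to 0.22) and -0.09 in C-MYC (-0.42 to 0.25).

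Taf7, which binds TAF1 and restrains its acetyltransferase activity, is a gene of 2 exons at chr18:37640491-37644204 on the minus strand, and lies within introns of 3 antisense genes with which it shares 0 exon bases. It had 679 and 760 counts (EV), 765 and 814 (BCR-ABL1) and 716 and 775 (C-MYC). In CPM the EV libraries were almost equal, at 31.7 and 31.8, and all 4 oncogene libraries lay above them, at 36.3 and 33.8 (BCR-ABL1) or 32.9 and 34.8 (C-MYC). The log2 fold changes were nevertheless only 0.14 (SE 0.13, adjusted p = 0.494) and 0.09 (SE 0.13, adjusted p = 0.586) by edgeR's quasi-likelihood test. The latter turned to -0.02 when libraries were scaled by their totals alone, so the direction is not settled.

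Taf5 and Taf6 form the core scaffold of TFIID. Taf5, a WD40-repeat protein (chr19:47067746-47083479, plus strand), had 706 and 583 counts (EV), 692 and 736 (BCR-ABL1) and 652 and 600 (C-MYC). Taf6, the histone-fold partner of TAF9 (chr5:138178617-138187451, minus strand), had 1440 and 1912 counts (EV), 1610 and 1979 (BCR-ABL1) and 1736 and 1627 (C-MYC). The EV and oncogene libraries of both genes overlapped in CPM. The log2 fold changes against EV were 0.14 (BCR-ABL1) and -0.01 (C-MYC) for Taf5, and 0.11 and 0.05 for Taf6. Of the exon bases of Taf6, 26.5% are shared with the antisense gene Ap4m1. With the strand setting not given, reads of this stretch cannot be assigned to either gene. Ap4m1 was not called, with log2 fold changes against EV of -0.07 (BCR-ABL1) and -0.11 (C-MYC). Taf5 was lower in both C-MYC libraries, at 30.0 and 26.9 CPM, than in both BCR-ABL1 libraries, at 32.8 and 30.6, by a log2 value of -0.16 (interval -0.56 to 0.25).

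Taf10, a histone-fold subunit shared by TFIID and SAGA (chr7:105739393-105744361, minus strand), came nearest to a call in BCR-ABL1 against EV. It had 2289 and 2162 counts (EV), 2599 and 2866 (BCR-ABL1) and 3089 and 2341 (C-MYC), or 107 and 90.4 CPM, 123 and 119, and 142 and 105. Both BCR-ABL1 libraries lay above both EV libraries, whereas the lower C-MYC library fell below the higher EV library. The log2 fold change was 0.30 in BCR-ABL1 against EV (SE 0.16, interval -0.08 to 0.67, adjusted p = 0.256 by edgeR's quasi-likelihood test) and 0.32 in C-MYC against EV (SE 0.16, interval -0.05 to 0.70, adjusted p = 0.139). The C-MYC value rested on its first library, since it was 0.53 without the second (adjusted p = 0.0478, edgeR) and 0.10 without the first. With the replicate block it was 0.32 and passed the test (adjusted p = 0.0475, edgeR). Of its exon bases, 45.9% are shared with the antisense gene Ilk, a kinase adaptor gene, which had a log2 fold change of -0.35 in C-MYC against EV (adjusted p = 0.0443, edgeR), opposite in sign to Taf10.

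Taf12, the histone-fold partner of TAF4 (chr4:132274375-132295766, plus strand), is the member with the CACGTG letters printed above, 84 bases before its start. It had 595 and 794 counts (EV), 685 and 800 (BCR-ABL1) and 870 and 773 (C-MYC). The CPM values were 27.8 and 33.2 (EV), 32.5 and 33.2 (BCR-ABL1) and 40.0 and 34.7 (C-MYC). Both C-MYC libraries lay above the other 4. The log2 fold change in C-MYC against EV was 0.29 (SE 0.15, interval -0.05 to 0.63, adjusted p = 0.146 by edgeR's quasi-likelihood test). Without the second EV library it was 0.43 and passed the test (adjusted p = 0.0426, edgeR), and without the first it was 0.17.

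Taf13, the histone-fold partner of TAF11 (chr3:108571698-108583222, plus strand), had the lowest counts of the members, with 255 and 459 (EV), 189 and 335 (BCR-ABL1) and 253 and 319 (C-MYC). In every condition the second library was the higher one, by 1.61-fold in EV after scaling. All conditions overlapped. The log2 fold change of -0.44 in BCR-ABL1 against EV was the largest of any member in size, and it had the largest standard error as well (SE 0.29, interval -1.12 to 0.24, adjusted p = 0.355 by edgeR's quasi-likelihood test). It was -0.05 without the second EV library, -0.74 without the first, -0.15 without the first BCR-ABL1 library and -0.80 without the second. In C-MYC against EV it was -0.26 (SE 0.29), and 0.12 without the second EV library.

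**Figure D2:**
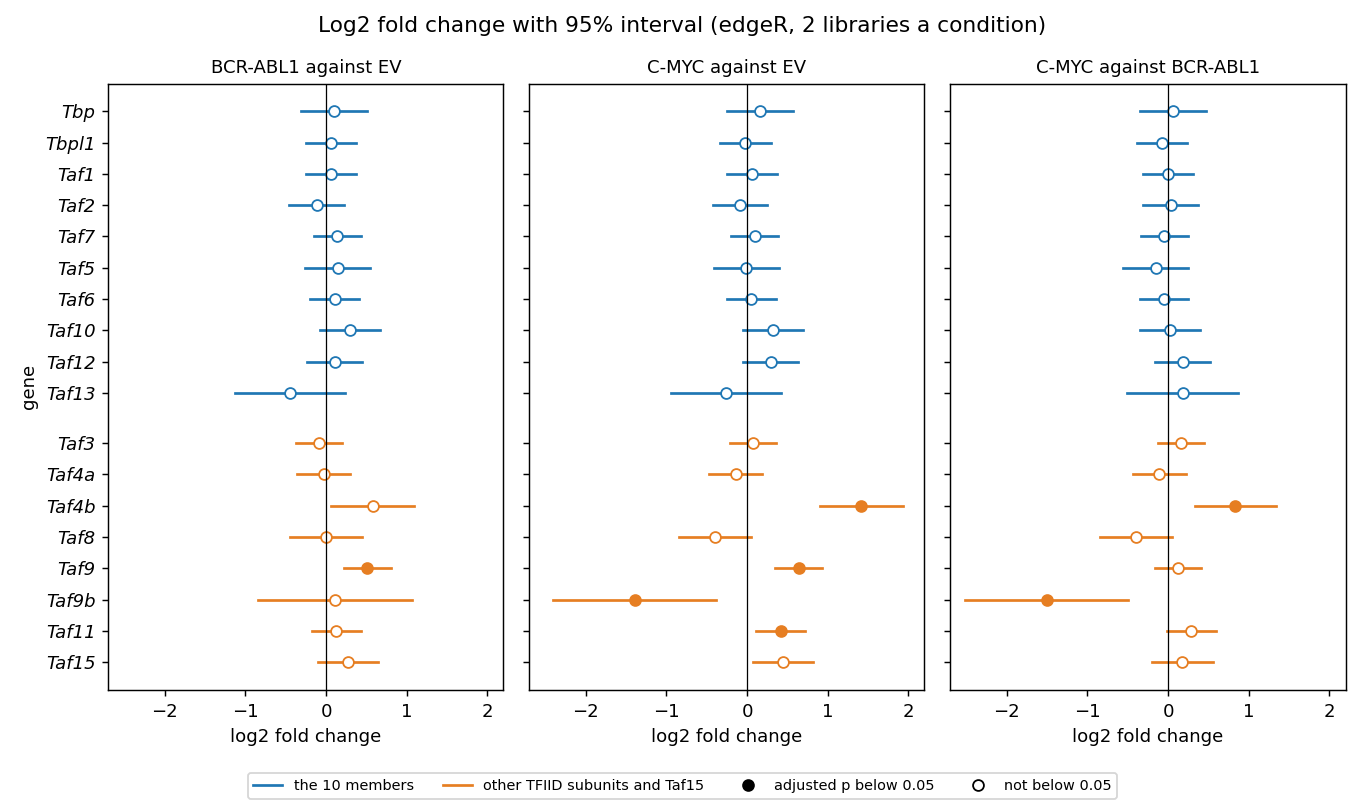
Log2 fold change (x axis) with its 95% interval for the 10 TFIID members (blue) and 8 other genes of the family (orange) in the 3 comparisons, from edgeR with 2 libraries a condition and filled circles for an adjusted p below 0.05. Every interval of a member crosses 0, while Taf4b (1.41), Taf9 (0.64), Taf11 (0.42) and Taf9b (-1.39) are filled in C-MYC against EV.

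For most members the libraries of one condition differed more than the conditions did. The EV libraries differed from each other by more than the largest gap between condition means in 7 of 10 members, on the log2 CPM scale, and the libraries of at least 1 condition did so in 8 of 10. The exceptions were Taf7 and Taf12, in which the gap between means was 0.14 and 0.29 and the largest gap between libraries 0.10 and 0.25. The same count was not made over all genes tested. A gap between single libraries also varies more than a gap between means of 2 libraries. These counts therefore do not set the members apart from other genes. The median gap between libraries over the 10 members was 0.28 (EV), 0.09 (BCR-ABL1) and 0.18 (C-MYC). Over all genes tested it was 0.27, 0.15 and 0.18, so the EV pair was the widest over all genes as well.

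The order of the members by level was set on a per-length scale, as CPM per kilobase of annotated exon averaged over the 6 libraries. Taf10 was highest at 25.0 ± 3.88 (SD, n = 6), followed by Taf6 (17.1 ± 1.23), Tbpl1 (16.7 ± 1.16), Taf1 (16.4 ± 1.37) and Taf2 (14.7 ± 1.51). Taf7 (10.2 ± 0.54), Taf5 (9.08 ± 1.04) and Taf12 (8.31 ± 0.97) formed a middle group. Taf13 (4.22 ± 1.09) and Tbp (3.38 ± 0.42) were lowest. Neighbours in this order overlapped in their ranges over the libraries, apart from the steps between Taf10 and Taf6, Taf2 and Taf7, and Taf12 and Taf13. The highest member was 7.40-fold above the lowest.

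The place of Tbp at the bottom depends on its annotated length. Its exons cover 13.6 kilobases in this annotation and its longest transcript 12.8, against 3.16 to 8.56 for the exons of the other members. In the deposited FPKM table, Tbp stood at 24.3 FPKM on average, above Tbpl1 at 13.1. Relative to the median gene, the ratio of FPKM to CPM per kilobase was 4.62 for Tbp, 4.23 for Taf1 and 2.11 for Taf10, and 0.50 to 1.19 for the other 7 members. How transcripts were combined to 1 FPKM value per gene is not given in the sources used here, so the levels of Tbp, Taf1 and Taf10 relative to other members are uncertain. Comparisons of 1 gene between conditions do not use the length.

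**Figure D3:**
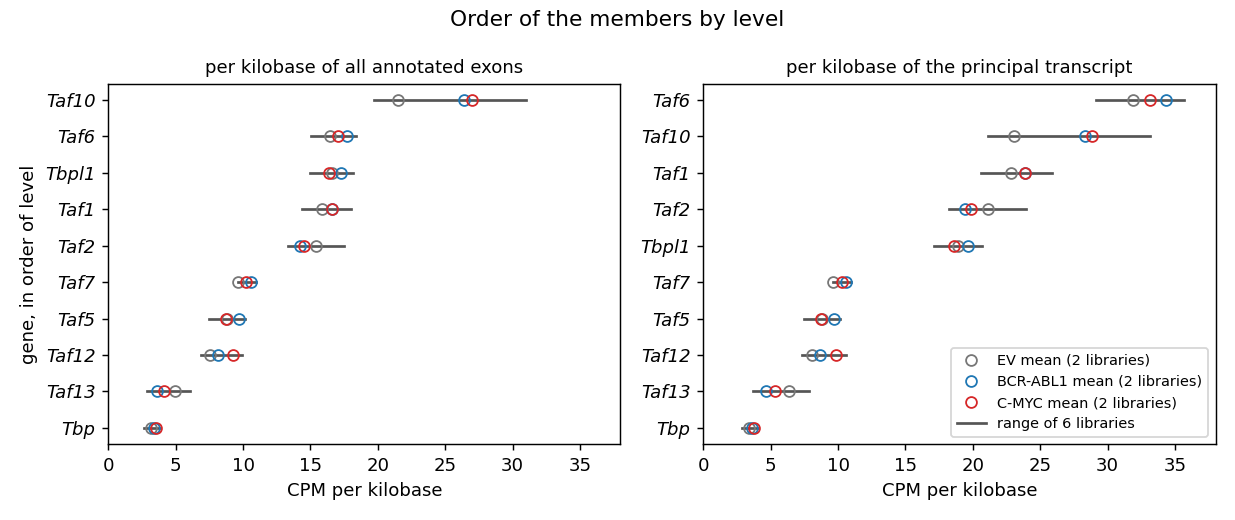
CPM per kilobase of the 10 members in order of level, with length taken as all annotated exons (left) or as the transcript marked principal by APPRIS (right), circles for condition means of 2 libraries and lines for the range of 6 libraries. Taf10 and Taf6 exchange the first place, and Taf13 and Tbp stay last on both scales. The length of Tbp is 13.6 kilobases on the left and 12.8 on the right, so the right scale hardly tests its place.

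Correlations among the members across the libraries were mixed in sign. Of the 45 pairs of members, 26 had a Pearson correlation of log2 CPM above 0 over the 6 libraries, with a median of 0.13. The highest values were 0.86 for Tbpl1 with Taf5, 0.82 for Tbp with Taf5 and 0.81 for Tbp with Taf10. The lowest were -0.92 for Taf2 with Taf5 and -0.91 for Tbp with Taf2. These 6 points share their libraries and contain the EV pair, in which Tbp and Taf5 were lower and Taf2 higher in the second library. The tested genes whose pattern was most like that of Tbp were Sap30bp (r = 0.999), Med26 (0.991) and Tsc22d2 (0.989), and those most like Tbpl1 were Gm9958 (0.987), Ssfa2 (0.986) and Zfp281 (0.982), each over 6 libraries and picked as the highest of all genes tested.

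Some other TFIID subunits were called in C-MYC, at a share near that of all genes (4 of 8 against 43.1% in either direction in C-MYC against EV). Of 10 further subunits and paralogs in the table, 8 were tested, and 3 of these were higher and 1 lower in C-MYC against EV, where 18.6% of all genes tested were higher and 24.5% lower. Their median log2 fold change was 0.25, against 0.06 for the 10 members and -0.08 for all genes. In BCR-ABL1 against EV, 1 of 8 was higher and 0 lower (5.08% and 12.0% of all genes), and in C-MYC against BCR-ABL1 1 was higher and 1 lower (11.5% and 11.9%).

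Taf4b, a paralog of TAF4 that is enriched in B cells and gonads, rose most. It had 498 and 377 counts (EV), 533 and 793 (BCR-ABL1) and 1227 and 1060 (C-MYC), so both C-MYC libraries lay above all others. Its log2 fold change was 1.41 in C-MYC against EV (SE 0.22, adjusted p = 0.0021 by edgeR's quasi-likelihood test) and 0.84 in C-MYC against BCR-ABL1 (SE 0.22, adjusted p = 0.0298). The former was called under all 11 alternatives and the latter under 6 of 11, being lost without any 1 of the 4 libraries compared (log2 fold changes of 0.66 to 1.05, adjusted p = 0.0628 to 0.223, edgeR). In BCR-ABL1 against EV it was 0.58 (adjusted p = 0.119, edgeR), and 0.89 without the first EV library (adjusted p = 0.0175, edgeR). Taf4a, the gene for TAF4 itself, had 1366 and 1966 counts (EV), 1508 and 1725 (BCR-ABL1) and 1463 and 1454 (C-MYC), and was not called (log2 fold change -0.14 in C-MYC against EV, interval -0.47 to 0.19).

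Taf9 and Taf9b, paralogs that pair with TAF6, differed in direction. Taf9 had 1666 and 1631 counts (EV), 2302 and 2386 (BCR-ABL1) and 2609 and 2399 (C-MYC). It rose in C-MYC (log2 fold change 0.64, SE 0.12, adjusted p = 0.0050 by edgeR's quasi-likelihood test) under all 11 alternatives as well, and in BCR-ABL1 (0.51, SE 0.12, adjusted p = 0.0281) under 6 of 11. The BCR-ABL1 call was lost without the second EV library (0.42, adjusted p = 0.0515) or either BCR-ABL1 library (0.45, adjusted p = 0.208, and 0.58, adjusted p = 0.124, edgeR). Taf9 shares 73.8% of its exon bases with Ak6 on the same strand, and how reads were split between them is uncertain. Ak6 had a log2 fold change of 0.73 in C-MYC against EV (adjusted p = 0.0265, edgeR) and -0.0049 in BCR-ABL1 against EV (interval -0.50 to 0.49).

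Taf9b had far fewer counts, with 194 and 113 (EV), 211 and 118 (BCR-ABL1) and 63 and 52 (C-MYC). It fell in C-MYC against EV (log2 fold change -1.39, SE 0.44, adjusted p = 0.0347 by edgeR's quasi-likelihood test) and against BCR-ABL1 (-1.51, SE 0.44, adjusted p = 0.0425). The call against EV was lost without the first EV library (-0.85, adjusted p = 0.141) or either C-MYC library (-1.55, adjusted p = 0.108, and -1.24, adjusted p = 0.163, edgeR). The call against BCR-ABL1 was lost without the first BCR-ABL1 library (-0.91, adjusted p = 0.308) or either C-MYC library (-1.67, adjusted p = 0.138, and -1.36, adjusted p = 0.205, edgeR).

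Taf11, the partner of TAF13, had 696 and 908 counts (EV), 811 and 928 (BCR-ABL1) and 1048 and 1023 (C-MYC). It rose in C-MYC against EV (0.42, SE 0.13, adjusted p = 0.0352 by edgeR's quasi-likelihood test), a call kept under 5 of 11 alternatives and lost without the first EV library (0.31, adjusted p = 0.0794) or either C-MYC library (0.39, adjusted p = 0.150, and 0.46, adjusted p = 0.0979, edgeR). Taf3, Taf8 and Taf15 were not called in any comparison by this test. Taf3 lay between 1083 and 1238 counts in all libraries. Taf8 had 1305 and 1052 counts in EV against 960 and 792 in C-MYC (-0.40, adjusted p = 0.134, edgeR), and Taf15, an RNA-binding protein found with TFIID, had 3484 and 5230 against 5216 and 6244 (0.45, adjusted p = 0.0567, edgeR). Taf15 was called in C-MYC against EV under 5 of 11 alternatives, DESeq2 among them (0.50, adjusted p = 0.0189), and without the second EV library both in C-MYC (0.68, adjusted p = 0.00581, edgeR) and in BCR-ABL1 (0.50, adjusted p = 0.0421, edgeR). Taf8 was called in C-MYC against EV without the second EV library (-0.61, adjusted p = 0.0166, edgeR) and with the replicate block (-0.39, adjusted p = 0.0212), and against BCR-ABL1 with the block (-0.40, adjusted p = 0.0287, edgeR). The germ cell paralogs were near or at the floor, with 0 to 3 counts of Taf7l per library and 0 counts of Tbpl2 in all 6, which allows up to 3 counts in each.

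Within a library, the balance of these paralogs can be read without scaling, in ratios chosen after their counts were seen. The log2 ratio of Taf4b to Taf4a counts was -1.46 and -2.38 (EV), -1.50 and -1.12 (BCR-ABL1) and -0.25 and -0.46 (C-MYC). That of Taf9b to Taf9 was -3.10 and -3.85 (EV), -3.45 and -4.34 (BCR-ABL1) and -5.37 and -5.53 (C-MYC). In both ratios the C-MYC libraries stood apart from the other 4, and EV and BCR-ABL1 overlapped. They are descriptions with no test.

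**Figure D4:**
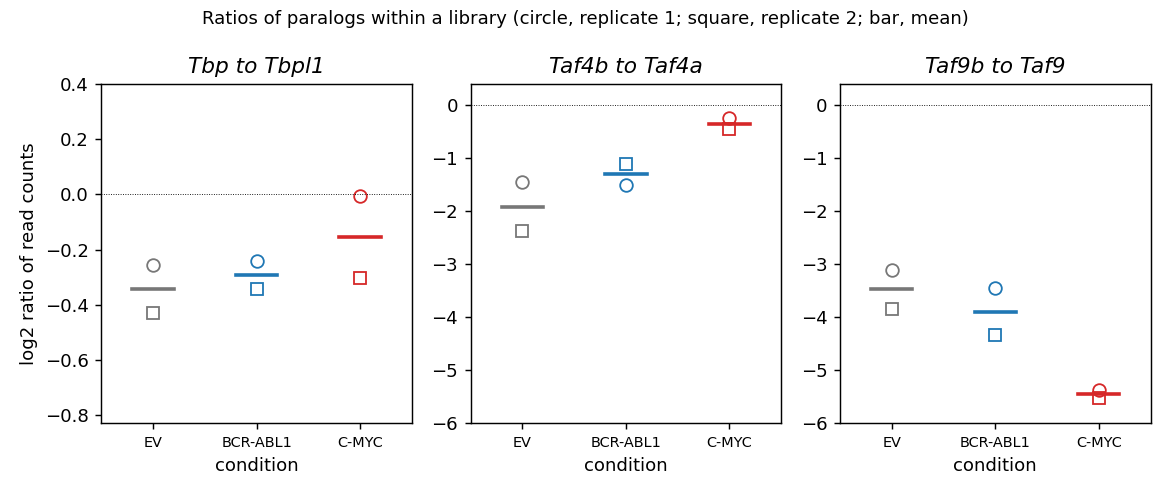
Log2 ratio of read counts of 3 pairs of paralogs within each library, by condition, with circles for replicate 1, squares for replicate 2, bars for means of 2 libraries and a separate y scale for the left panel. Tbp to Tbpl1 overlaps between conditions, Taf4b to Taf4a is highest in C-MYC (-0.25 and -0.46), and Taf9b to Taf9 is lowest there (-5.37 and -5.53).

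Other lists of the transcription machinery held calls in C-MYC against EV, where 18.6% of all genes tested were higher and 24.5% lower. Of 12 RNA polymerase II subunits, 9 were higher and 0 lower, with a median log2 fold change of 0.52. Polr2f, a subunit common to the 3 nuclear polymerases, had 861 and 1001 counts in EV and 2038 and 1953 in C-MYC (1.14, SE 0.12, adjusted p = 0.000515 by edgeR's quasi-likelihood test), and Polr2h, another shared subunit, 463 and 547 against 995 and 1016 (1.04, SE 0.13, adjusted p = 0.000756, edgeR). Of 10 subunits of TFIIH, a factor that acts in opening the promoter, 7 were higher and 0 lower, with a median of 0.47. Gtf2h4 rose by 0.93 (SE 0.16, adjusted p = 0.0031, edgeR) and Gtf2h2 by 0.75 (SE 0.19, adjusted p = 0.0160, edgeR), the latter call being lost without either C-MYC library (adjusted p = 0.0555 and 0.0873). The TFIIH count fell to 2 without the first C-MYC library, 3 without the second, 4 with libraries scaled by their totals alone, and 3 by limma on FPKM, and that of RNA polymerase II to 6 without the first C-MYC library.

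Some genes of other factors that act together with TBP were also called, to be read against the same 18.6% higher and 24.5% lower, or 43.1% in either direction. Of the 7 genes of TFIIA, TFIIB, TFIIE and TFIIF, 2 were higher in C-MYC against EV, Gtf2f2 (0.71, SE 0.12, adjusted p = 0.0026) and Gtf2e1 (0.62, SE 0.13, adjusted p = 0.0069, edgeR's quasi-likelihood test). The genes of TFIIA and TFIIB were not called by this test. Of 3 TBP regulators, Drap1 (0.48, adjusted p = 0.0095, edgeR) and Dr1 (0.35, adjusted p = 0.0392, edgeR), which together form the NC2 repressor of TBP, were higher. Drap1 lost its call without the first C-MYC library (0.43, adjusted p = 0.0653), and Dr1 without the second EV library (0.25, adjusted p = 0.100) or either C-MYC library (0.34 and 0.36). Of 8 partners of TBP at RNA polymerase I and III promoters, 3 were higher and 1 lower (Brf1, which DESeq2 did not call). Taf1d, a subunit of the polymerase I factor SL1, doubled, with 1747 and 2040 counts in EV and 3679 and 3762 in C-MYC (1.02, SE 0.10, adjusted p = 0.000428, edgeR), and Taf1a of the same factor rose by 0.56 (SE 0.15, adjusted p = 0.0185, edgeR), a call lost without either C-MYC library (adjusted p = 0.0819 and 0.0758).

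SAGA shares Taf10, Taf12 and other subunits with TFIID, and its list here leaves the shared ones out. It had 4 of 15 listed subunits higher and 2 lower in C-MYC against EV. The 6 calls of 15 are near the share of all genes tested (43.1% in either direction). Its acetyltransferase gene Kat2a rose by 0.91 (SE 0.14, adjusted p = 0.0017), and Atxn7, of its deubiquitinase module, fell by 0.81 (SE 0.15, adjusted p = 0.0043, edgeR's quasi-likelihood test). In BCR-ABL1 against EV the calls in these other lists were Polr2f (0.47, adjusted p = 0.0365), Taf1d (0.42, adjusted p = 0.0264) and Kat2a (0.48, adjusted p = 0.0493, edgeR), and the 10 TFIIH subunits had 0 called. These calls held under 6, 6 and 5 of 11 alternatives. All 3 were lost without the first BCR-ABL1 library (0.56, 0.45 and 0.52) or without the second (0.38, 0.39 and 0.44), and that of Kat2a also without the first EV library (0.36). The 2 comparisons share the EV libraries. The lists were chosen with earlier results of these data known, and they were not tested as lists.

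**Figure D5:**
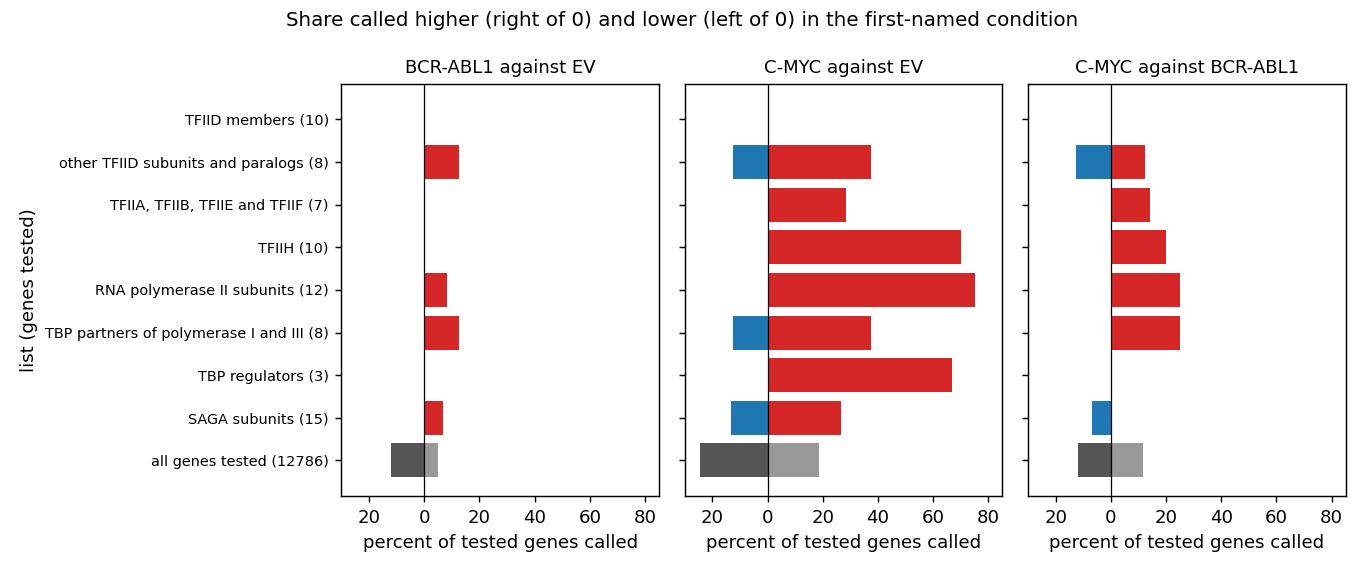
Percent of tested genes called higher (right of 0) or lower (left of 0) in the first-named condition, for each list with its number of tested genes and for all 12786 genes tested (grey), in the 3 comparisons. The bar of the 10 TFIID members is at 0 throughout, while in C-MYC against EV 9 of 12 RNA polymerase II and 7 of 10 TFIIH subunits are called higher.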

How the data were processed

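RNA-seq of 6 libraries (3 conditions, 2 each) was used, and the 15 ChIP-seq samples were not used here. The authors aligned poly(A) RNA reads to mouse build mm10 (GRCm38) with STAR 2.5.0 and deposited whole-number counts per gene symbol without normalization. The deposited FPKM values, normalized by the authors for length and depth, are credited to StringTie 1.3.0 in the submitters' processing notes. The counting program and its strand setting are not given in the sources used here. Both tables hold 0 columns of other samples.

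Counts were fitted with edgeR 4.0.16 in R 4.3.3, with all 6 libraries in 1 model (filterByExpr, TMM, quasi-likelihood test, Benjamini-Hochberg adjustment over 12786 genes, called below 0.05). A standard error is the log2 fold change divided by the square root of F, and intervals are 95%. DESeq2 1.42.0, limma 3.58.1 on log2(FPKM + 1) for genes with a mean FPKM above 1, other scalings, no filter, a replicate block and leaving out each library were alternatives. The scripts were tested on simulated data. Exon lengths and positions are from the GENCODE annotation of GRCm38, with a length for 95.6% of symbols, and promoter sequences from RefSeq (GRCm38.p6). Correlations used log2(CPM + 1). Ratios of counts were compared by an exact permutation test in scipy 1.17.1.

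The members, lists and tests were chosen with earlier results of these data known. Named genes are all 10 members, the other TFIID subunits in the table, at most 2 called genes with the largest change of each list, and the 3 genes most correlated with Tbp and with Tbpl1. Genes overlapping a member were added after their values were seen. Of the erythroid list, 1 marker gene is not reported here.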

Additional observations from a re-analysis of the deposited data

How the results depend on the processing

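Of the 10 members, 0 were called in BCR-ABL1 against EV and in C-MYC against BCR-ABL1 under all 11 alternatives of each comparison. In C-MYC against EV the count was 1 with the replicate block (Taf10, log2 fold change 0.32, adjusted p = 0.0475, edgeR) and 0 to 1 when a library was left out. Replicate numbers are shared by the conditions, but the labels do not tie them to an experiment, and the deviations of same-numbered libraries correlated at 0.36, 0.31 and 0.31. The block moved the calls over all genes from 5515 to 6631 in C-MYC against EV, from 2180 to 3224 in BCR-ABL1 against EV and from 2991 to 4278 in C-MYC against BCR-ABL1. The block turned no log2 fold change of a member given in the text. Most members have no value given for C-MYC against BCR-ABL1, where the members above 0 went from 6 to 5 with the block.

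Of 231 log2 fold changes of members under an alternative, 194 kept their direction and their side of the threshold, 34 changed sign, with no value beyond 0.23 in size after the change, and 3 passed the threshold. These counts cover every member in the comparisons against EV, but only Taf5 in C-MYC against BCR-ABL1. Signs of the other members in that comparison are not counted, and some depended on the alternative. There, 6 members were above 0 in the main fit and with DESeq2, 3 with library totals alone and 2 with limma on FPKM. Scaling by library totals alone shifted the median of all genes by -0.12 in C-MYC against EV. With it, the log2 fold changes against EV were -0.0100 (Taf1) and -0.012 (Tbpl1) in BCR-ABL1, and -0.053 (Taf1), -0.066 (Taf6) and -0.025 (Taf7) in C-MYC. With limma on FPKM they were -0.012 (Tbpl1, BCR-ABL1) and, for C-MYC, -0.061 (Taf1), -0.060 (Taf6) and -0.033 (Taf7). In C-MYC against EV, Tbpl1 and Taf5 were at 0.023 and 0.033 with DESeq2 size factors, 0.032 and 0.042 with DESeq2, and 0.034 and 0.044 with only the 4 libraries compared, and Taf5 was at 0.0043 without a filter on low counts.

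Leaving out 1 library at a time, the ranges in BCR-ABL1 against EV were -0.10 to 0.35 (Tbp), -0.072 to 0.21 (Tbpl1), -0.066 to 0.21 (Taf1), -0.29 to 0.095 (Taf2), -0.056 to 0.38 (Taf5), -0.0065 to 0.24 (Taf6) and -0.0094 to 0.24 (Taf12). In C-MYC against EV they were -0.044 to 0.41 (Tbp), -0.15 to 0.13 (Tbpl1), -0.066 to 0.21 (Taf1), -0.26 to 0.13 (Taf2), -0.21 to 0.23 (Taf5), -0.061 to 0.18 (Taf6) and -0.56 to 0.12 (Taf13). The log2 ratio of Tbp to Tbpl1 differed by -0.034 to 0.14 in BCR-ABL1 minus EV, 0.04 to 0.34 in C-MYC minus EV and -0.013 to 0.29 in C-MYC minus BCR-ABL1.

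DESeq2 called 4 genes of TFIIA, TFIIB, TFIIE and TFIIF in C-MYC against EV and 3 in C-MYC against BCR-ABL1 (2 and 1 by edgeR), and its size factors in edgeR also gave 3 in the latter. For RNA polymerase II subunits in BCR-ABL1 against EV, DESeq2 called 3 and its size factors 2 (1 by edgeR), and in C-MYC against BCR-ABL1 DESeq2 called 5 (3 by edgeR). For SAGA in C-MYC against BCR-ABL1, both gave 2 (1 by edgeR). The highest member was 9.25-fold above the lowest per kilobase of the APPRIS principal transcript, an alternative chosen after seeing the data. The causes were not tested. With 2 libraries a condition and standard errors of 0.13 to 0.29, most changes of the sizes seen here were not detectable.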
